A study of Mus musculus with 12 samples.

Results

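The 41 genes described here encode the protein-folding machinery of the mouse cell. They comprise cytosolic HSP70 proteins with their J protein and exchange-factor partners, HSP90 with its cochaperones, the chaperones of the endoplasmic reticulum (ER) and of mitochondria, a small heat shock protein, the heat shock factors Hsf1 and Hsf2, and subunits of the TRiC chaperonin and of prefoldin. The genes were chosen by symbol, and all 41 were found among the 22619 gene symbols of the deposited tables, each at 1 locus. RNA with a poly(A) tail was measured in 12 libraries made by Smart-seq2, which copies and amplifies whole transcripts from minute samples. Of these, 8 came from embryos of the C57BL/6 strain: 2 wild-type libraries (control embryo), 3 libraries of Dcaf11 knockout embryos (KO embryo) and 3 libraries of Dcaf11 knockout embryos whose titles call them arrested (KO arrest). The other 4 came from embryonic stem (ES) cells of the 129Sv strain: 2 wild-type libraries (control ESC) and 2 with a knockdown of Dcaf11 (KD ESC), which encodes a substrate receptor of a CUL4-DDB1 ubiquitin ligase. The stage of the embryos, the number of embryos in a library, the deleted part of Dcaf11, the agent of the knockdown and the source of the ES cell replicates are not stated. The p-values therefore measure only how far these libraries scatter, which may be technical.

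HSP70 proteins bind and release short stretches of unfolded protein. J proteins start that cycle, and HSP110 and BAG proteins end it by exchanging the nucleotide. HSP90 finishes the folding of signalling proteins handed to it through Stip1. TRiC is a ring-shaped chamber, built from Tcp1 and the Cct subunits, in which actin and tubulin fold, and prefoldin carries newly made actin and tubulin to it. Many of these genes are activated by HSF1, which binds heat shock elements in their promoters. In the mouse, Hsf1 is also a maternal-effect gene needed for early cleavage, and Hspa1a and Hspa1b are among the first genes transcribed when the embryonic genome is switched on.

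Values are FPKM as the authors deposited them, reads scaled by transcript length and library, and fold changes are on log2(FPKM + 1), which understates the change of low genes. A gene was called when its adjusted p (limma, Benjamini-Hochberg over all genes tested) was under 0.05. The number of genes with at least 1 FPKM ranged from 6573 to 12061 per library and was lowest in control embryo 1, and the 2 control embryos differed more from each other than the ES cell replicates did in many of the genes below. Markers of the oocyte and early embryo reached 1 FPKM in every library of each embryo group for 9 of 11 genes, and all 8 pluripotency markers did so in every ES cell library. Of the same 8 markers, 5 did so in every control embryo library, 4 in every KO embryo library and 7 in every KO arrest library. Markers of blood summed to 64.1 to 130.04 FPKM in the control embryos, 223 to 336 in the KO embryo libraries and 0 in the 3 KO arrest libraries, and markers of fibroblasts to 17.1 to 67.2, 59.2 to 92.9 and 0.0513 to 2.90. S100a9 made up most of each blood sum above 0 in the embryos, at 38.1 and 107.8 FPKM in control embryo and 157, 159 and 245 in KO embryo. Hba-a1 was at 0 in every library, and Ptprc was at 0.486 FPKM or less. Markers of cumulus cells summed to 15.7 to 17.1 FPKM in the control embryos and to at most 4.46 in the knockout libraries. Tnfaip6 made up most of both control sums, at 17.1 and 12.02 FPKM, while Amh, Inha and Fshr were at 0 in both controls. In control ESC the same markers summed to 14.25 to 14.33 FPKM. Whether the control embryo libraries held cumulus cells was not tested. Of the oocyte and early embryo markers, Dppa3 was at 4949 and 12398 FPKM in control embryo, 12074, 7278 and 14555 in KO embryo and 21963, 30499 and 25965 in KO arrest, and the other 10 summed to 571 to 1215, 229.6 to 295 and 69.6 to 137. Dppa3 was thus highest and the sum of the others lowest in KO arrest. These sums move with the embryo groups compared below, and their part in the results was not tested. Dcaf11 itself measured 2.82 and 14.3 FPKM in control embryo, 3.99, 2.84 and 0.184 in KO embryo and 4.43, 0.422 and 6.02 in KO arrest, so these groups overlapped, and with the deleted part unknown its level does not check the knockout labels. In ES cells both knockdown libraries (1.69 and 1.83 FPKM) lay below both controls (6.48 and 4.52), at an adjusted p of 0.0521.

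**Figure D1:**
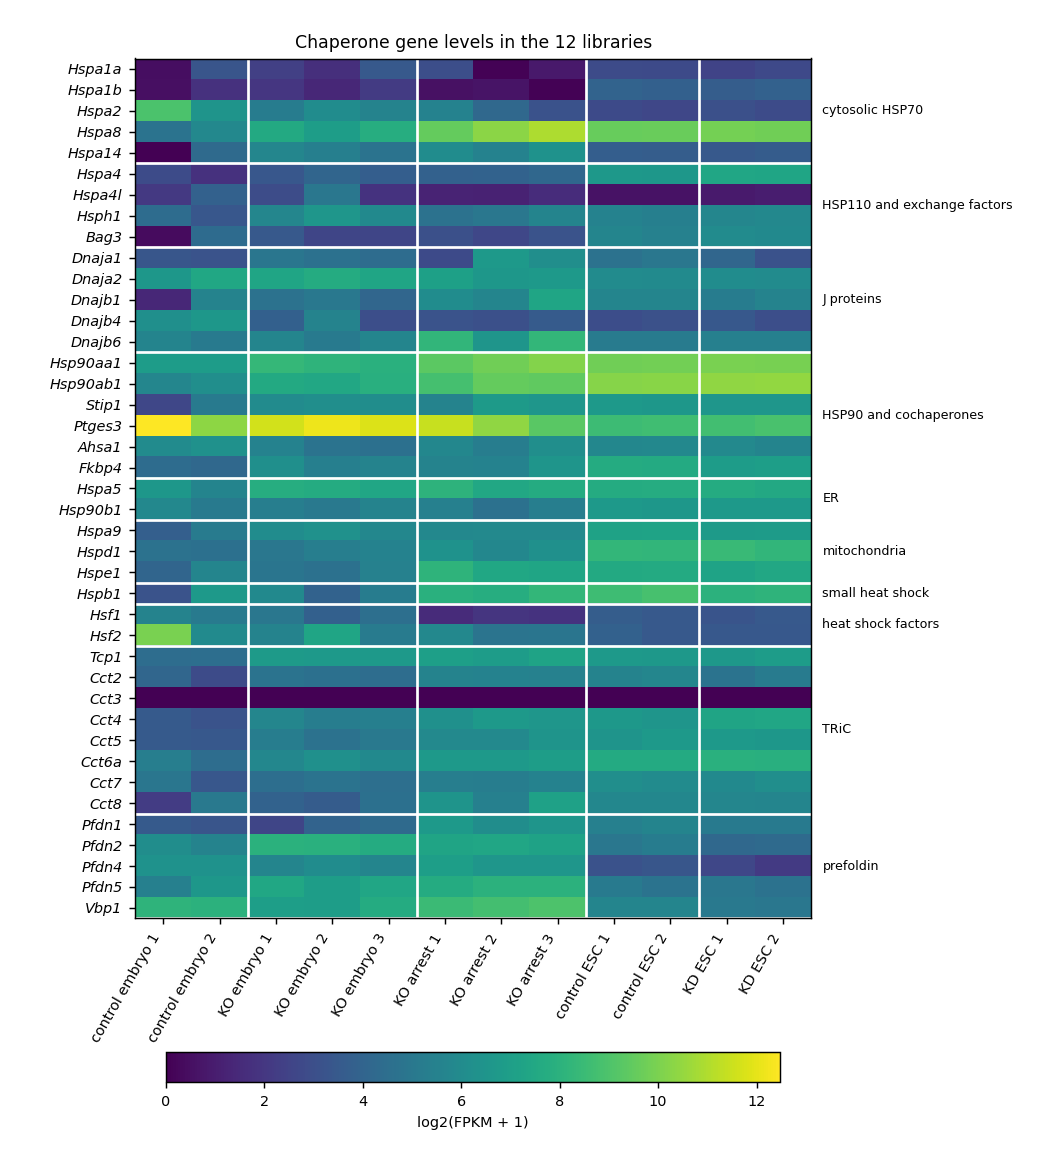
Level of each of the 41 genes (rows, by role) in each of the 12 libraries (columns, by group), as log2(FPKM + 1) on the colour scale. Cct3 is listed at 0 in all 12 libraries, Ptges3 is the brightest row in the embryos, and Hspa8, Hsp90aa1 and Hsp90ab1 brighten from control embryo to KO embryo to KO arrest.

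More chaperone genes were called in the arrested knockout libraries than in the other knockout libraries, and nearly all of the calls were rises. In KO arrest against control embryo, 24 of the 40 genes tested were called, beside 25.2% of all 11795 genes tested; 21 were higher and 3 lower, beside 16.4% and 8.87%. In KO embryo against control embryo 6 were called, beside 6.36% of all genes. All 6 were higher and none was lower, beside 4.86% and 1.5%, and at an unadjusted p under 0.05 the numbers were 17 and 4, beside 15.7% and 6.81%. The median log2 fold change of the 40 genes was 1.58 in the former comparison, against 0.45 over all genes, and 0.68 in the latter, against 0.31. In KO arrest against KO embryo 9 were called, beside 8.58% of all genes, 8 higher and 1 lower, beside 4.93% and 3.65%, with a median of 0.60 against 0.07. Each pair of these comparisons shares libraries, so they are not independent of each other. Cct3, listed at 0, was the gene left out by the filter. In these libraries a lower level of a transcript and fewer cells that carry it cannot be told apart.

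These counts depend on how the libraries are scaled. Median-of-ratios scaling lowered the median of all genes by 0.36 in KO embryo against control embryo and by 0.43 in KO arrest against control embryo. It took the share of higher genes among all calls from 76.4% to 35.8% and from 64.9% to 45.2%. Under it 3 chaperone genes were called in the former comparison, Tcp1 higher and Dnajb4 and Ahsa1 lower, and 15 in the latter, 11 higher and 4 lower. TPM lowered the median of all genes by 0.35 in both comparisons of KO arrest, and the share of higher genes among all calls was 29.0%, from 57.4%, against KO embryo; against control embryo 1294 of 2588 calls were higher. The removal of the trend with transcript length gave shares of 57.1% in KO embryo against control embryo, 51.2% in KO arrest against control embryo and 47.0% in KO arrest against KO embryo. Leaving out control embryo 2 raised the number called in KO embryo against control embryo to 13, and leaving out KO embryo 1 or KO embryo 3 lowered it to 1, which was Tcp1 both times. In KO arrest against control embryo the number stayed between 17 and 26 when any library was left out.

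**Figure D2:**
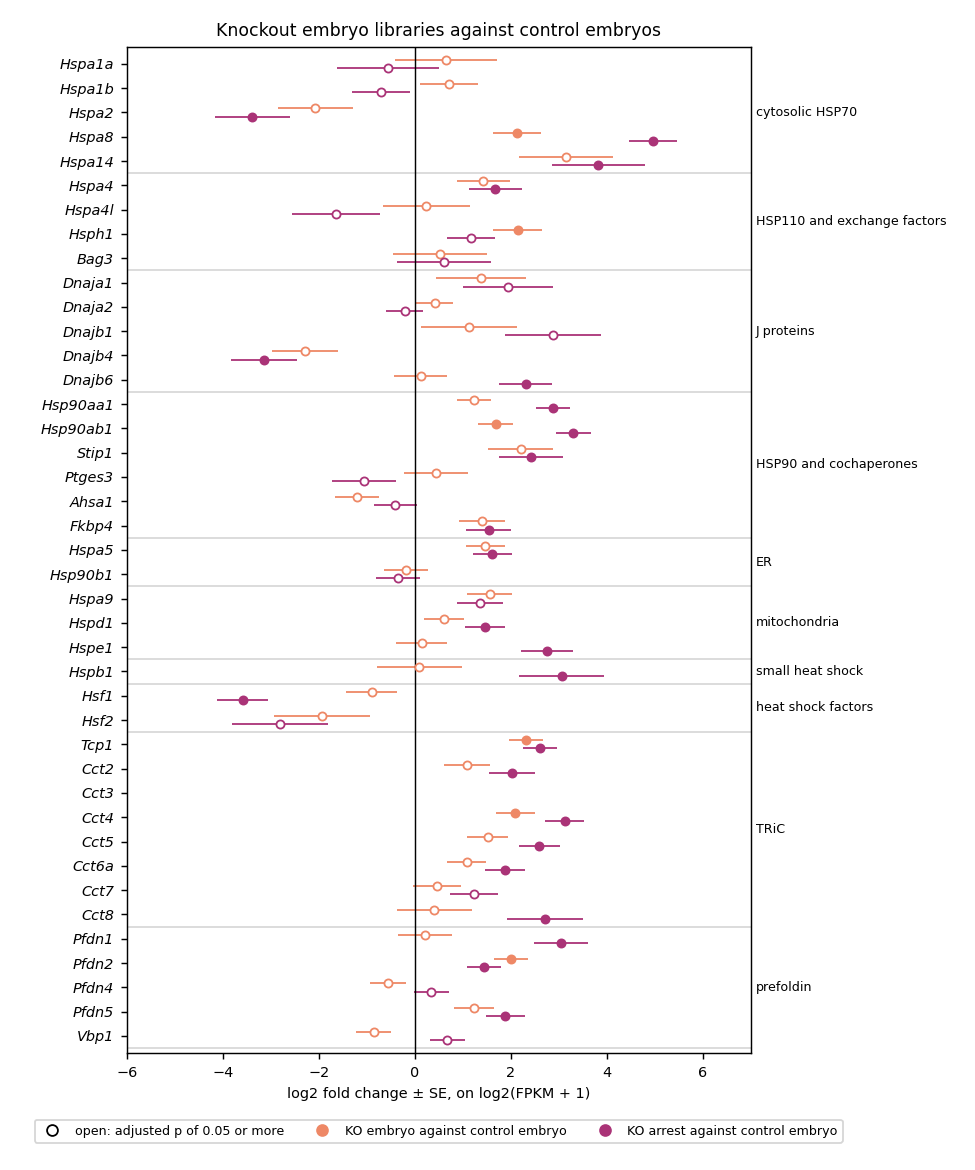
Log2 fold change ± SE on log2(FPKM + 1) of each gene tested in KO embryo (orange) and KO arrest (purple) against the same control embryos, by role. Filled points passed an adjusted p of 0.05; Hspa8, Hspa14 and Hsp90ab1 lie farthest to the right in KO arrest, and Hsf1, Hspa2 and Dnajb4 farthest to the left among the filled points.

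Among the cytosolic HSP70 genes, the constitutive Hspa8 rose in both knockout groups, Hspa2 fell in KO arrest, and the heat-inducible Hspa1a and Hspa1b were not called. Hspa8 (mm9 chr9:40609356-40613282) encodes HSC70, the housekeeping HSP70 of the cytosol. It was at 26.4 and 56.6 FPKM in control embryo, 193, 123 and 216 in KO embryo and 750.4, 1293 and 1959 in KO arrest, and no group overlapped another. The mean was 32.2-fold higher in KO arrest than in control embryo (log2 fold change 4.97 ± 0.49 (SE), adjusted p = 0.000243, 0.000142 to 0.00285 over its 16 alternatives) and 4.28-fold higher in KO embryo (log2 fold change 2.13 ± 0.49 (SE), adjusted p = 0.0342, 0.0103 to 0.123). The KO embryo call was kept under 7 of 16 alternatives. It was lost, among others, under median-of-ratios scaling, with no filter, with the replicate block, without control embryo 1, without any single KO embryo library and without KO arrest 2. Between the knockout groups Hspa8 was 7.53-fold higher in KO arrest (log2 fold change 2.84 ± 0.44 (SE), adjusted p = 0.00588), and that call was kept under all 16 alternatives. Of the 50-base windows of the Hspa8 transcript, 74.8% also occur in 13 other annotated genes, so reads may be shared with copies.

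Hspa2 (mm9 chr12:77505163-77507923), the HSP70 best known from spermatogenesis in the mouse, ran the other way. It was at 486 and 88.3 FPKM in control embryo, 37.1, 65.6 and 47.2 in KO embryo and 46.1, 17.9 and 7.98 in KO arrest. The mean fell from 287 ± 281 FPKM in the controls to 24.0 ± 19.8 in KO arrest (SD, n = 2 and 3; log2 fold change -3.38 ± 0.79 (SE), adjusted p = 0.0112). All 3 libraries lay below both controls, and the call was lost without control embryo 1 (adjusted p = 0.0848; 0.00208 to 0.0848 over the alternatives). No 50-base window of Hspa2 occurs in another gene. Within a library the ratio of Hspa8 to Hspa2, which no scaling of a whole library changes, was 0.0542 and 0.641 in control embryo, 5.19, 1.88 and 4.57 in KO embryo, 16.3, 72.2 and 246 in KO arrest and 129 to 146 in the 4 ES cell libraries. Hspa2 thus exceeded Hspa8 in both control embryos and in no other library.

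Hspa14, an HSP70 that works at the ribosome, was listed at 0 in control embryo 1 and at 18.6 FPKM in control embryo 2, against 51.8, 41.5 and 26.0 in KO embryo and 65.6, 44.8 and 80.2 in KO arrest. Every knockout library lay above both controls. The rise was called in KO arrest (log2 fold change 3.83 ± 0.98 (SE), adjusted p = 0.017) and not in KO embryo (adjusted p = 0.0828). It was lost, among others, without control embryo 1 and without KO arrest 3 (0.056), within a range of 0.000103 to 0.0632. The stress-inducible pair on chromosome 17 did not separate either knockout group from the controls. Hspa1a was at 0.372 and 8.63 FPKM in control embryo, 4.18, 2.21 and 10.1 in KO embryo and 7.05, 0.0560 and 0.782 in KO arrest. Hspa1b was at 0.416 and 2.40 in control embryo, 2.96, 1.63 and 3.54 in KO embryo and 0.490, 0.574 and 0.0518 in KO arrest. At these low levels Hspa1b lay lower in KO arrest than in KO embryo without overlap (log2 fold change -1.42 ± 0.54 (SE), adjusted p = 0.126). Neither gene of the pair was called in an embryo comparison, and 66.3% of the windows of Hspa1a occur elsewhere, most of them in Hspa1b.

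Of the HSP110 and exchange-factor genes, Hsph1 rose in KO embryo and Hspa4 in KO arrest. Hsph1, which encodes HSP105, a nucleotide exchange factor of HSP70, was at 20.6 and 9.62 FPKM in the controls, 51.4, 93.8 and 59.3 in KO embryo and 25.3, 29.9 and 48.1 in KO arrest. The KO embryo libraries were the highest and did not overlap the others (log2 fold change 2.14 ± 0.50 (SE), adjusted p = 0.0362), but the call was kept under 5 of 16 alternatives (0.0275 to 0.19). It was lost, among others, without control embryo 2, any KO embryo library or KO arrest 2, with the replicate block, and under TPM, median-of-ratios scaling, no filter and the removal of the length trend. Hspa4, the gene of the HSP110 protein APG-2, was at 6.16 and 2.40 FPKM in control embryo, 9.37, 16.1 and 12.3 in KO embryo and 13.8, 14.1 and 16.8 in KO arrest. Its KO arrest call (log2 fold change 1.68 ± 0.55 (SE), adjusted p = 0.0453) held under 2 of 16 alternatives and was lost, among others, when any library other than control embryo 1 was left out. Hspa4l, its paralogue, was at 3.14 and 13.9 FPKM in control embryo, 6.37, 29.7 and 2.57 in KO embryo and 1.36, 1.31 and 1.96 in KO arrest. Bag3, an exchange factor that links HSP70 to autophagy, was at 0.298 and 19.4 in control embryo, 10.2, 5.06 and 5.05 in KO embryo and 7.18, 5.34 and 8.19 in KO arrest. Neither gene was called.

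The J proteins split. Dnajb6, a suppressor of protein aggregation, rose in KO arrest, Dnajb4 fell there, and Dnaja1, Dnaja2 and Dnajb1 did not pass the test in any embryo comparison. Dnajb6 has 42.8% of its 50-base windows in 10 other genes. It was at 49.2 and 33.1 FPKM in the controls, 50.4, 33.5 and 50.7 in KO embryo and 301, 91.5 and 308 in KO arrest. KO arrest lay above both other groups without overlap (log2 fold change 2.31 ± 0.55 (SE), adjusted p = 0.0126 against control embryo; log2 fold change 2.19 ± 0.49 (SE), adjusted p = 0.0238 against KO embryo). The former call was lost only under median-of-ratios scaling (0.0792, within 0.00478 to 0.0792). The latter was kept under 9 of 16 alternatives and lost, among others, without any KO embryo library, KO arrest 1 or KO arrest 3 (0.0134 to 0.0966). Dnajb4, an HSP40 of the cytosol (mm9 chr3:151846919-151873263), was at 73.9 and 97.1 FPKM in the controls, 13.3, 47.4 and 6.90 in KO embryo and 8.25, 7.29 and 10.9 in KO arrest. It was 9.71-fold lower in KO arrest (log2 fold change -3.14 ± 0.69 (SE), adjusted p = 0.00863), under all 16 alternatives. Dnaja1, a farnesylated partner of HSP70, was scattered within KO arrest, at 6.08, 102 and 70.7 FPKM. Dnajb1, the main HSP40, differed between the controls, at 1.60 and 47.6 FPKM. It was at 25.3, 30.5 and 16.6 in KO embryo and 67.0, 49.8 and 161 in KO arrest. KO arrest lay above both other groups without overlap (log2 fold change 2.87 ± 1.00 (SE), adjusted p = 0.058 against control embryo). Dnaja2, another partner of HSP70, averaged 134 ± 51.1 FPKM in control embryo, 174 ± 23.6 in KO embryo and 113 ± 21.7 in KO arrest (SD, n = 2, 3 and 3).

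The promoter of Dnajb6 holds a heat shock element of 3 units, GAA, TTC and GAA with any 2 bases between neighbours, searched on both strands in the 250 bases before each annotated start. That motif occurs in the promoters of 0.514% of the 27025 genes of the RefSeq table (0.466% of 32851 promoters), and among the 34 member genes with a promoter there it was found in Dnajb6, Hspd1 and Hspe1. A match is a description of the letters, not a bound site. The sequence is shown because its gene was among those that rose in KO arrest, with the element in capitals (RefSeq, GRCm38.p6 chr5:29735648-29735897, plus strand, ending at the base before the start).
Dnajb6: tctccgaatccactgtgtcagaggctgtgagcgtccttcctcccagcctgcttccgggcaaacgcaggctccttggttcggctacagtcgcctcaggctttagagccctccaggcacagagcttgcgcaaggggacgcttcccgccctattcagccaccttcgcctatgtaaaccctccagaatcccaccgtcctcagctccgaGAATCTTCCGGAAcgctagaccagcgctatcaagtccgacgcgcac
The element lies at -46 to -34 from that start; another start of the gene, farther downstream, has the same element at -127 to -115. The shorter form, GAA and TTC with the same spacing, which is contained in the longer one and reads the same on both strands, was found in 9 of the 34 genes, beside 7.73% of all genes in the table: Cct2, Dnaja1, Dnajb6, Fkbp4, Hspa1a, Hspa1b, Hspb1, Hspd1 and Hspe1. Of these, Hspa1a and Hspa1b were not called in KO arrest against control embryo, nor was Dnaja1. No promoter was in the table for Cct4, Hsf1, Hsp90aa1, Hsp90ab1, Hspa8, Hspa9 and Pfdn1.

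Both cytosolic HSP90 genes rose in KO arrest, and Hsp90ab1 also rose in KO embryo. Hsp90ab1 (mm9 chr17:45704727-45710210), the constitutive form, was at 52.5 and 71.4 FPKM in the controls, 193, 178 and 231 in KO embryo and 444, 745 and 695 in KO arrest. Hsp90aa1 (mm9 chr12:111929246-111934605), the stress-inducible form, was at 117 and 119 FPKM in control embryo, 318, 280.3 and 238 in KO embryo and 639, 889 and 1162 in KO arrest. For both genes the 3 groups did not overlap. In KO arrest against control embryo the rise was 10.1-fold for Hsp90ab1 (log2 fold change 3.30 ± 0.37 (SE), adjusted p = 0.00036) and 7.61-fold for Hsp90aa1 (log2 fold change 2.87 ± 0.35 (SE), adjusted p = 0.00052). Both calls were kept under all 16 alternatives. In KO embryo Hsp90ab1 was called (log2 fold change 1.69 ± 0.37 (SE), adjusted p = 0.0273, 0.0126 to 0.177 over the alternatives), a call kept under 7 of 16. It was lost, among others, under median-of-ratios scaling, with no filter, with the replicate block, with the length trend removed and without control embryo 1 or any KO embryo library. Hsp90aa1 was not called there (adjusted p = 0.0682). Between the knockout groups both were higher in KO arrest, Hsp90aa1 by 1.65 ± 0.32 and Hsp90ab1 by 1.61 ± 0.33 on the log2 scale (adjusted p = 0.0137 and 0.017). Each call was lost without any of 4 knockout libraries: KO embryo 2, KO arrest 2 and KO arrest 3 for both, KO embryo 3 for Hsp90aa1 and KO embryo 1 for Hsp90ab1. Hsp90aa1 exceeded Hsp90ab1 in all 8 embryo libraries, by a ratio of 1.03 to 2.23, and was below it in all 4 ES cell libraries, at 0.688 to 0.748. Of the windows of Hsp90aa1, 58.5% occur in other genes, against 4.49% for Hsp90ab1.

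Of the 4 cochaperones, Stip1 and Fkbp4 rose in KO arrest. Stip1, which bridges HSP70 and HSP90, was at 5.26 and 34.7 FPKM in the controls, 63.0, 71.7 and 69.3 in KO embryo and 47.6, 111 and 92.9 in KO arrest (log2 fold change 2.42 ± 0.67 (SE), adjusted p = 0.0239). Every knockout library lay above both controls. The Stip1 call was kept under 9 of 16 alternatives and lost, among others, without control embryo 1, KO arrest 2 or KO arrest 3 (0.000758 to 0.138). Fkbp4, an immunophilin of steroid receptor complexes, was at 20.6 and 17.5 FPKM in control embryo, 73.0, 40.3 and 47.3 in KO embryo and 46.2, 44.6 and 90.3 in KO arrest (log2 fold change 1.54 ± 0.47 (SE), adjusted p = 0.0361). The call was kept under 5 of 16 alternatives and lost, among others, without either control embryo, KO embryo 3, KO arrest 2 or KO arrest 3. Ptges3, the gene of p23, which stabilises the closed form of HSP90, was the most abundant of the 41 transcripts in every embryo library but KO arrest 3. In that library Hspa8, Hsp90aa1 and Hsp90ab1 exceeded Ptges3. It was at 5727 and 1324 FPKM in the controls, 3137, 4623 and 3573 in KO embryo and 2792, 1339 and 615 in KO arrest, and was called in no embryo comparison. The control values span those of most knockout libraries, and KO arrest lay below KO embryo without overlap, at an adjusted p of 0.145. Ahsa1, the activator of the HSP90 ATPase, was at 63.7 and 78.5 FPKM in control embryo, 44.7, 25.8 and 23.5 in KO embryo and 54.2, 38.7 and 71.8 in KO arrest. All 3 KO embryo libraries lay below both controls, at an adjusted p of 0.143, and under median-of-ratios scaling Ahsa1 was called lower there (0.0419).

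In the ER, Hspa5 rose in KO arrest and Hsp90b1 did not. Hspa5, which encodes BiP, the HSP70 of the ER lumen and sensor of unfolded proteins, was at 98.1 and 48.3 FPKM in the controls, 216, 203 and 164 in KO embryo and 271, 175 and 205 in KO arrest. All 6 knockout libraries lay above both controls. The rise was called in KO arrest (log2 fold change 1.62 ± 0.41 (SE), adjusted p = 0.0158) and not in KO embryo (adjusted p = 0.0576). The KO arrest call was lost without control embryo 2 (0.0529), under TPM, median-of-ratios scaling and the removal of the length trend (0.00649 to 0.234). Hsp90b1, which encodes GRP94, the HSP90 of the ER, was at 56.6 and 34.3 FPKM in control embryo, 39.7, 31.7 and 46.8 in KO embryo and 42.8, 23.8 and 39.9 in KO arrest, with overlapping groups. Within a library the ratio of Hspa5 to Hsp90b1 was 1.73 and 1.41 in the controls, 5.43, 6.42 and 3.50 in KO embryo and 6.34, 7.36 and 5.13 in KO arrest, against 1.74 to 2.18 in ES cells.

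These 2 genes are the classical pair of the unfolded protein response, and both promoters hold the ER stress response element, CCAAT and CCACG with any 9 bases between, searched on both strands in the same window. It occurs in 0.13% of all genes (0.113% of promoters) and in no other of the 34 member genes. The promoters are shown because the genes share the element while their levels in the knockout libraries differed, with the matches in capitals (RefSeq, GRCm38.p6; Hspa5 chr2:34771840-34772089, plus strand; Hsp90b1 chr10:86705445-86705694, minus strand).
Hspa5: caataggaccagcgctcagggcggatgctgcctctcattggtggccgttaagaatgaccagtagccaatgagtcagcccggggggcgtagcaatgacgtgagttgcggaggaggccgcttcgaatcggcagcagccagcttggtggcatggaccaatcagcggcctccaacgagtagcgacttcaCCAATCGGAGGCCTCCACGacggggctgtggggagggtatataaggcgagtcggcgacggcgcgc
Hsp90b1: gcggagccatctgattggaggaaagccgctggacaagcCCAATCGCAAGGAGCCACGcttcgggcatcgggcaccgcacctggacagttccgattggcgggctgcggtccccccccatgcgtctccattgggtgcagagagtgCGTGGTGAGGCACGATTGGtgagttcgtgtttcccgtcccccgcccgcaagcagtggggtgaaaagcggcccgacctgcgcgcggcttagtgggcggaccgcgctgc
Hspa5 has 1 match, at -65 to -47 from the start. Hsp90b1 has 2, at -212 to -194 and, read on the opposite strand, at -107 to -89.

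Among the mitochondrial chaperones, the chaperonin Hspd1 (HSP60) and its lid Hspe1 (HSP10) rose in KO arrest, and Hspa9, the mitochondrial HSP70, did not pass the test. Hspe1 was at 15.7 and 50.7 FPKM in the controls, 28.2, 24.6 and 44.4 in KO embryo and 277, 174 and 159.8 in KO arrest. KO arrest exceeded both other groups without overlap (log2 fold change 2.76 ± 0.54 (SE), adjusted p = 0.00498 against control embryo; log2 fold change 2.62 ± 0.48 (SE), adjusted p = 0.0113 against KO embryo). The former call was kept under all 16 alternatives, and the latter was lost without KO embryo 2 (0.0569; 0.00208 to 0.0569). Hspd1 was at 25.5 and 23.4 FPKM in control embryo, 29.9, 40.1 and 44.8 in KO embryo and 80.6, 53.9 and 76.4 in KO arrest. It rose in KO arrest (log2 fold change 1.47 ± 0.41 (SE), adjusted p = 0.0254), a call kept under 9 of 16 alternatives. That call was lost, among others, without KO arrest 1 or KO arrest 3 and under each of TPM, median-of-ratios and length-trend scaling (0.0175 to 0.281). Hspa9 was at 12.8 and 35.9 FPKM in control embryo, 66.1, 78.9 and 53.8 in KO embryo and 55.1, 58.0 and 57.8 in KO arrest. Every knockout library exceeded both controls, at an adjusted p of 0.08 in KO embryo and 0.0588 in KO arrest.

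Hspd1 and Hspe1 stand head to head on chromosome 1 and share 1 promoter of 215 bases between their starts. It is shown because the heat shock element found for both genes is the same stretch, in capitals, where 2 matches overlap, while their levels did not keep a fixed ratio (RefSeq, GRCm38.p6 chr1:55087933-55088147, written on the plus strand, along Hspe1).
Hspd1-Hspe1: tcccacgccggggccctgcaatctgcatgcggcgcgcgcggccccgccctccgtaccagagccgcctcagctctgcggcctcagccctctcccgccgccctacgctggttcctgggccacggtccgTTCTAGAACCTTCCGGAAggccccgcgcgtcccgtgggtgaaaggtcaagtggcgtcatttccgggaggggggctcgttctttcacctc
The ratio of Hspe1 to Hspd1 within a library was 0.614 and 2.17 in control embryo, 0.943, 0.615 and 0.991 in KO embryo, 3.43, 3.24 and 2.09 in KO arrest and 0.433 to 0.667 in the ES cells. The transcripts differ in length, at 774 bases for Hspe1 and 2423 for Hspd1. The trend with transcript length was not removed from this ratio, and its part in the ratio was not tested. Copies elsewhere in the genome hold 44.8% of the windows of Hspd1 and 44.8% of those of Hspe1.

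Hspb1, the small heat shock protein HSP25 of the mouse, was at 8.05 and 102 FPKM in the controls, 58.9, 14.1 and 37.4 in KO embryo and 241, 219 and 309 in KO arrest. KO arrest was higher than both (log2 fold change 3.06 ± 0.88 (SE), adjusted p = 0.0284 against control embryo; log2 fold change 2.96 ± 0.79 (SE), adjusted p = 0.0434 against KO embryo), but the controls lay far apart. The call against control embryo was kept under 8 of 16 alternatives and lost, among others, without control embryo 1 or any KO arrest library. The call against KO embryo was kept under 6 of 16 and lost, among others, without any of the 6 knockout libraries (0.00402 to 0.158).

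Neither heat shock factor was called higher in a knockout group. Hsf1 (mm9 chr15:76307875-76331402), the master regulator of the heat shock response, was at 46.4 and 34.0 FPKM in the controls, 30.1, 13.4 and 22.6 in KO embryo and 1.93, 2.77 and 2.55 in KO arrest. The 3 groups did not overlap, and KO arrest was 16.6-fold below the controls (log2 fold change -3.58 ± 0.53 (SE), adjusted p = 0.00124) and 9.11-fold below KO embryo (log2 fold change -2.69 ± 0.47 (SE), adjusted p = 0.00939). Both falls were kept under all 16 alternatives; the difference of KO embryo from the controls was not called (adjusted p = 0.353). Hsf2, a factor of gametogenesis and embryonic development, was at 999.8 and 61.9 FPKM in the controls, 47.0, 159.9 and 35.5 in KO embryo and 56.3, 26.8 and 27.7 in KO arrest. The 2 controls lay far apart, and the gene was not called (adjusted p = 0.0631 in KO arrest).

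**Figure D3:**
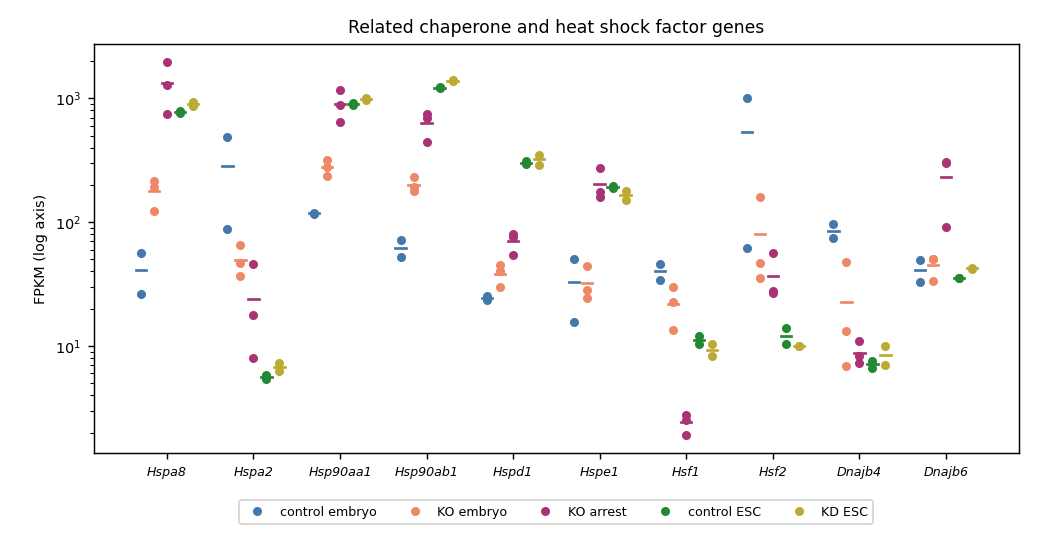
FPKM on a log axis of 10 related genes in each library (points) with group means (bars). Hspa8, Hsp90aa1, Hsp90ab1, Hspe1 and Dnajb6 are highest or near highest in KO arrest among the embryo groups, while Hspa2, Hsf1 and Dnajb4 are lowest there.

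Most of TRiC rose in KO arrest: 6 of the 7 subunits tested were called higher and none lower, beside 16.4% of all genes called higher. In KO embryo 2 of 7 were called, Tcp1 and Cct4, beside 4.86%. Tcp1 (mm9 chr17:13109331-13117933), the alpha subunit, was at 20.8 and 21.5 FPKM in the controls, 112, 108 and 108 in KO embryo and 133, 119.7 and 150.4 in KO arrest. It was 5.17-fold higher in KO embryo (log2 fold change 2.32 ± 0.35 (SE), adjusted p = 0.00967), a call kept under 15 of 16 alternatives, every left-out library among them (0.00311 to 0.0566), and 6.36-fold higher in KO arrest (log2 fold change 2.61 ± 0.35 (SE), adjusted p = 0.000776), under all 16 alternatives. Tcp1 overlaps Acat3 on the other strand, and 22.2% of its windows occur in other genes.

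Cct4 (mm9 chr11:22890593-22903336), the delta subunit, was at 10.8 and 8.10 FPKM in the controls, 52.6, 37.6 and 40.4 in KO embryo and 74.8, 102 and 93.6 in KO arrest. Cct5 (mm9 chr15:31520639-31531559), the epsilon subunit, was at 10.6 and 9.83 in control embryo, 37.9, 24.8 and 32.1 in KO embryo and 57.5, 58.6 and 88.5 in KO arrest. For both genes KO arrest was the highest group, KO embryo came next and control embryo was the lowest, without overlap. The KO arrest rises were 9.56-fold for Cct4 (log2 fold change 3.13 ± 0.41 (SE), adjusted p = 0.000674) and 6.67-fold for Cct5 (log2 fold change 2.60 ± 0.43 (SE), adjusted p = 0.00229), each under all 16 alternatives. In KO embryo Cct4 was called (log2 fold change 2.09 ± 0.41 (SE), adjusted p = 0.0193) and Cct5 was not (adjusted p = 0.0634). The Cct4 call was kept under 11 of 16 alternatives, within a range of 0.0142 to 0.109. It was lost, among others, under median-of-ratios scaling, with the replicate block and without KO embryo 1 (0.0852) or KO embryo 3 (0.0729). Cct2 was at 16.6 and 6.34 FPKM in control embryo and 46.9, 45.2 and 43.9 in KO arrest, and Cct8 at 3.71 and 31.9 in control embryo and 86.7, 42.5 and 141 in KO arrest. Cct6a averaged 30.5 ± 13.5 FPKM in control embryo and 110.0 ± 9.64 in KO arrest (SD, n = 2 and 3). In Cct8 one control lay far below the other. Cct2, Cct6a and Cct8 rose in KO arrest by 2.03, 1.88 and 2.71 on the log2 scale (adjusted p = 0.0122, 0.00846 and 0.0295). All 3 calls were lost under median-of-ratios scaling, those of Cct2 and Cct8 under TPM and those of Cct2 and Cct6a with the length trend removed. That of Cct8 was also lost, among others, without control embryo 1, KO arrest 1 or KO arrest 3, and was kept under 8 of 16 alternatives. Cct7 was the exception, at 28.4 and 9.59 FPKM in control embryo and 39.0, 38.8 and 44.6 in KO arrest (adjusted p = 0.0949).

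The remaining subunit, Cct3, was listed at 0 in all 12 libraries. A row without a gene name covers the same span on the same strand, mm9 chr3:88101038-88125689, starting 19 bases before Cct3 and ending 1 base after it. That row was at 8.42 and 8.21 FPKM in the controls, 12.2, 33.6 and 51.4 in KO embryo, 60.9, 70.1 and 70.2 in KO arrest, 64.2 and 48.0 in control ESC and 36.9 and 43.6 in KD ESC. It was left out of the tests because it has no name, and whether its signal is that of Cct3 was not tested.

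The summed level of the 7 subunits was 131 and 108 FPKM in the controls, 318, 306 and 307 in KO embryo and 540.4, 514 and 683 in KO arrest. The subunits also lay closer together in the arrested libraries. The highest subunit was 3.42, 3.08 and 3.42 times the lowest in KO arrest, 7.93, 9.45 and 5.18 times in KO embryo and 10.8 and 5.03 times in the controls. The scaling of a whole library does not change that ratio, but removal of the length trend can.

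**Figure D4:**
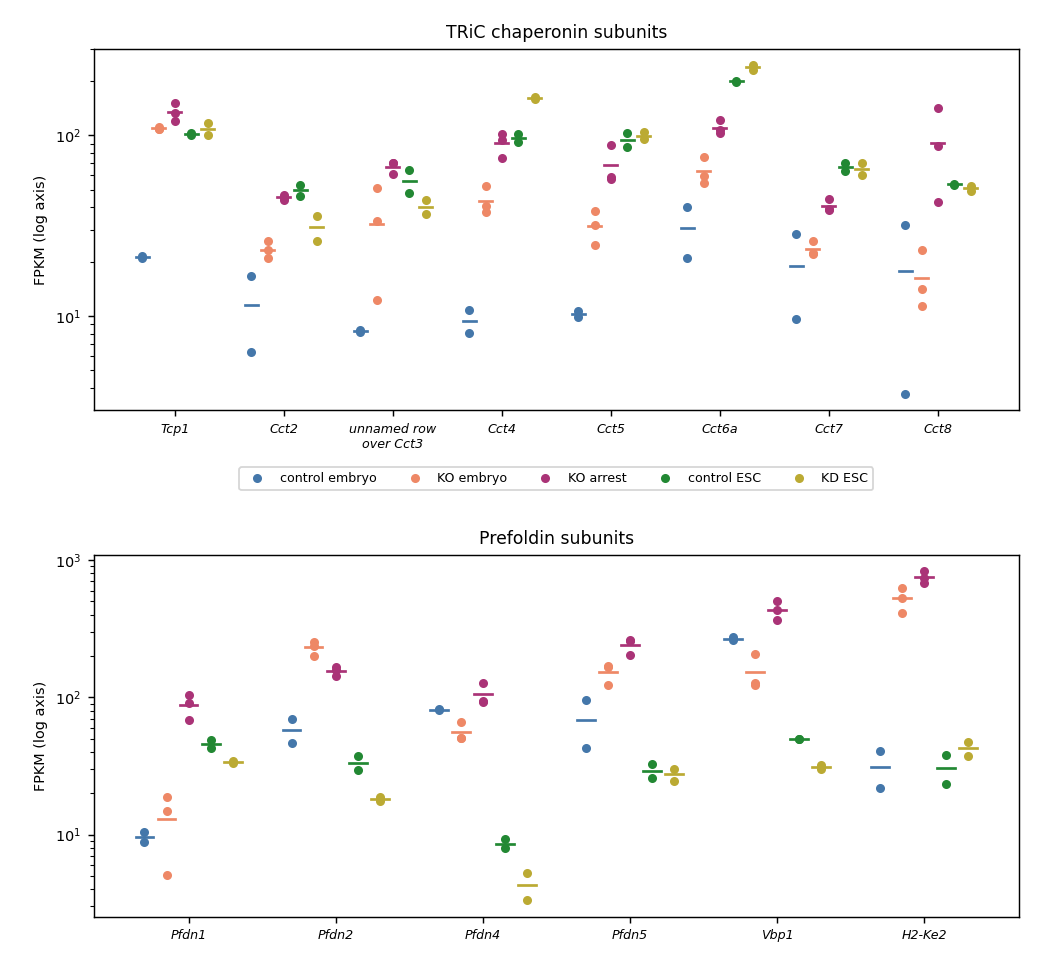
FPKM on a log axis of the TRiC subunits (upper panel) and the prefoldin subunits (lower panel) in each library (points) with group means (bars). The unnamed row over Cct3 is drawn beside the TRiC subunits, and whether its signal is that of Cct3 was not tested. In the upper panel both embryo knockout groups lie above the controls for Tcp1, Cct4 and Cct5, and in the lower panel H2-Ke2 is at 414 to 828 FPKM in the knockout embryo libraries and at 22.0 to 47.7 in every other library.

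Prefoldin did not move as a block. Pfdn2 rose in KO embryo, and Pfdn1, Pfdn2 and Pfdn5 in KO arrest. These are 1 and 3 of the 5 subunits tested, beside 4.86% and 16.4% of all genes called higher. Pfdn2, a beta-type subunit (mm9 chr1:173275830-173288301), was at 69.2 and 46.3 FPKM in the controls, 253, 238 and 202 in KO embryo and 157, 165 and 144 in KO arrest, so KO embryo was the highest group. The KO embryo call (log2 fold change 2.00 ± 0.35 (SE), adjusted p = 0.0137) was kept under 11 of 16 alternatives. It was lost with the replicate block and without KO embryo 1 (0.0676) or KO embryo 3 (0.0566). The KO arrest call (log2 fold change 1.44 ± 0.35 (SE), adjusted p = 0.0138) was kept under 12 of 16. Both calls were lost under median-of-ratios scaling and with the length trend removed. The ranges were 0.0102 to 0.115 and 0.00946 to 0.311. Of its windows 28.8% occur in Klhdc9.

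Pfdn1, another beta-type subunit, was at 10.5 and 8.81 FPKM in the controls, 5.06, 14.8 and 18.9 in KO embryo and 105, 68.3 and 90.6 in KO arrest. It did not separate KO embryo from the controls, and in KO arrest it was 9.09-fold above the controls (log2 fold change 3.04 ± 0.56 (SE), adjusted p = 0.00373) and 6.81-fold above KO embryo (log2 fold change 2.82 ± 0.50 (SE), adjusted p = 0.00979), both under all 16 alternatives. Pfdn5, an alpha-type subunit also known as the MYC binder MM-1, was at 42.6 and 95.4 FPKM in control embryo, 169.9, 124 and 166 in KO embryo and 202, 263 and 258 in KO arrest (log2 fold change 1.89 ± 0.41 (SE), adjusted p = 0.00865 in KO arrest), a call lost with the length trend removed (0.137; 0.0013 to 0.137). Vbp1, the other alpha-type subunit, was lower in all KO embryo libraries than in the controls and higher in all KO arrest libraries, at 277 and 260.1 FPKM in control embryo, 127, 123 and 206 in KO embryo and 364, 432 and 505 in KO arrest. Neither difference from the controls was called. The difference between the knockout groups was called (log2 fold change 1.53 ± 0.32 (SE), adjusted p = 0.0191) and kept under 10 of 16 alternatives. That call was lost, among others, without KO embryo 1, KO embryo 2, KO arrest 2 or KO arrest 3 (0.00853 to 0.12). Pfdn4 was at 81.9 and 81.2 FPKM in control embryo, 50.2, 66.6 and 50.5 in KO embryo and 127, 94.9 and 92.7 in KO arrest. Of the windows of Pfdn5, 27% occur in 2 other genes.

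The sixth prefoldin subunit, Pfdn6, appears in the deposited tables under its older symbol H2-Ke2, which the RefSeq gene table lists as a synonym. Its fold changes against the control embryos exceeded those of the 5 listed subunits in both knockout groups. H2-Ke2 was at 22.0 and 40.5 FPKM in control embryo, 532, 414 and 630.0 in KO embryo, 745, 679 and 828 in KO arrest, 23.4 and 37.8 in control ESC and 37.2 and 47.7 in KD ESC. Every knockout embryo library stood above every other library. The rise was 16.8-fold in KO embryo (log2 fold change 4.07 ± 0.37 (SE), adjusted p = 0.00239) and 24.0-fold in KO arrest (log2 fold change 4.60 ± 0.37 (SE), adjusted p = 0.000141), and both calls were kept under all 16 alternatives.

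In ES cells few of these genes were called, and the largest called change of a mean was 1.69-fold, in Hspa4. Of 39 genes tested 5 were called, beside 6.23% of the 12264 genes tested, 2 higher and 3 lower, beside 2.59% and 3.64%, and the median log2 fold change was -0.08, against -0.09 over all genes. Higher genes made up 41.6% of all calls, 55.1% under median-of-ratios scaling and 56.2% with the length trend removed. Hspa4l and Cct3 did not pass the filter. Hspa4 was at 98.2 and 96.2 FPKM in control ESC and 169 and 160.1 in KD ESC (log2 fold change 0.75 ± 0.07 (SE), adjusted p = 0.0286). Cct4 was at 101 and 91.3 in control ESC and 158 and 164 in KD ESC (log2 fold change 0.74 ± 0.08 (SE), adjusted p = 0.0317). Fkbp4 fell from 202 and 196 to 117 and 127 FPKM (log2 fold change -0.70 ± 0.08 (SE), adjusted p = 0.0314). Hspb1 fell from 394 and 458 to 256 and 276 (log2 fold change -0.67 ± 0.10 (SE), adjusted p = 0.0424) and Vbp1 from 49.8 and 50.2 to 32.2 and 30.2 (log2 fold change -0.66 ± 0.09 (SE), adjusted p = 0.0384). For each of the 5 genes both knockdown libraries lay on one side of both controls. All 5 calls were lost when either control ESC library was left out, with adjusted p from 0.168 to 0.207; those of Cct4, Hspb1 and Vbp1 also went without KD ESC 1, and those of Hspb1 and Vbp1 without KD ESC 2.

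Of the 5 listed prefoldin subunits 4 were lower in the knockdown at an unadjusted p under 0.05, beside 18.2% of all genes, and of these Vbp1 was called. H2-Ke2 (Pfdn6) was not lower, at 23.4 and 37.8 FPKM in control ESC and 37.2 and 47.7 in KD ESC. Its groups overlapped and it was not called. Pfdn2 was at 29.7 and 37.4 FPKM in control ESC and 17.6 and 18.7 in KD ESC (adjusted p = 0.0514), Pfdn1 at 42.4 and 48.9 in control ESC and 34.3 and 33.3 in KD ESC (0.0884), and Pfdn4 at 7.94 and 9.27 in control ESC and 5.26 and 3.34 in KD ESC (0.0935). For comparison with the arrested embryos, Hspa8 was at 769 and 786 FPKM in control ESC and 934 and 873 in KD ESC (log2 fold change 0.21 ± 0.06, SE). Hsp90aa1 was at 878 and 918 in control ESC and 1006 and 966 in KD ESC (0.14 ± 0.06) and Hsf1 at 12.1 and 10.4 in control ESC and 8.38 and 10.3 in KD ESC (-0.24 ± 0.16), none of them called.

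**Figure D5:**
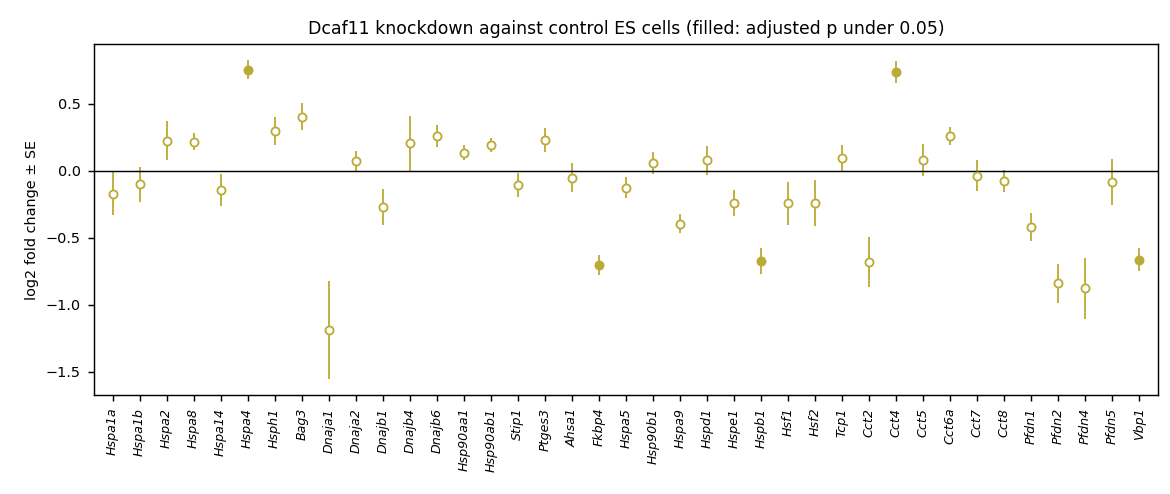
Log2 fold change ± SE on log2(FPKM + 1) of the 39 genes tested in KD ESC against control ESC, ordered by role. Filled points (Hspa4 and Cct4 above 0; Fkbp4, Hspb1 and Vbp1 below 0) passed an adjusted p of 0.05.

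The effect of the knockout in embryos and that of the knockdown in ES cells were compared directly, in a fit of all 12 libraries. Of 40 genes 2 differed, Pfdn2 and Tcp1, beside 2.69% of the 14447 genes tested. Both had the more positive effect in embryos, beside 2.06% of all genes, and none the more negative, beside 0.623%; at an unadjusted p under 0.05 the numbers were 15 more positive and 1 more negative, beside 13.3% and 5.07%. The difference was 2.84 ± 0.38 (SE) on the log2 scale for Pfdn2 (adjusted p = 0.0062; 0.00215 to 0.0849 over its 19 alternatives) and 2.23 ± 0.31 for Tcp1 (0.00743; 0.00242 to 0.0974). Pfdn2 lost the call without control ESC 2 and with the length trend removed, and Tcp1 without either control ESC library. Both lost it under median-of-ratios scaling, which took the share of positive differences among all calls from 76.8% to 39.0%. Without control embryo 2, 12 of the genes differed. For Cct4, higher in both settings, the difference was 1.35 ± 0.39 (adjusted p = 0.102).

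Control embryos and control ES cells differed in most of these genes. Of 40 genes 34 were called, beside 53.4% of all 14447 genes, 11 higher in embryos and 23 lower, beside 12.6% and 40.8%, with a median of -2.04 against -1.01 over all genes. Tissue and strain differ together here and cannot be told apart. Higher genes made up 23.6% of all calls, 37.6% under median-of-ratios scaling, which raised the median of all genes by 0.58, and 44.7% with the length trend removed, which raised it by 0.78. All 7 TRiC subunits were lower in embryos, while 4 of the 5 listed prefoldin subunits were higher. H2-Ke2 (Pfdn6) was not called, at 22.0 and 40.55 FPKM in control embryo and 23.4 and 37.8 in control ESC. Under median-of-ratios scaling 4 TRiC subunits (Tcp1, Cct4, Cct5 and Cct6a) were called lower, and Pfdn2, Pfdn4, Pfdn5 and Vbp1 higher. Cct4 was at 10.8 and 8.10 FPKM in control embryo and 101 and 91.3 in control ESC (-3.23 ± 0.29, adjusted p = 1.84e-05), and Cct5 was lower by a similar amount (-3.09 ± 0.32). Pfdn4 was at 81.9 and 81.2 FPKM in control embryo and 7.94 and 9.27 in control ESC (3.11 ± 0.32, adjusted p = 3.73e-05), and Vbp1 at 277 and 260.1 in control embryo and 49.8 and 50.2 in control ESC (2.40 ± 0.29, adjusted p = 0.000106). These 4 calls were kept under all 19 alternatives, including the removal of the trend with transcript length.

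As a ratio within a library, summed TRiC to summed prefoldin was 0.272 and 0.220 in control embryo, 0.526, 0.541 and 0.477 in KO embryo, 0.565, 0.502 and 0.627 in KO arrest, 4.06 and 3.86 in control ESC and 6.24 and 6.91 in KD ESC. The sums cover the 5 listed prefoldin subunits and leave out H2-Ke2 (Pfdn6) and the unnamed row over Cct3. H2-Ke2 was at 22.0 and 40.55 FPKM in control embryo and at 414 to 828 in the knockout embryo libraries. Counting it would lower the ratio more in those libraries than in the controls. KO embryo and control embryo would then overlap in this ratio, while KO arrest would stay above control embryo. The summed TRiC level of KO arrest approached that of control ESC (540.4, 514 and 683 against 660.4 and 663 FPKM), whereas its summed prefoldin level was far above (956, 1024 and 1090.0 against 163 and 172). Hspa8, Hsp90ab1 and Hspa4 were lower in control embryo than in control ESC, with log2 fold changes of -4.29 ± 0.47, -4.29 ± 0.28 and -4.31 ± 0.40 (SE), and all 3 mitochondrial genes were lower. Hspa2 (4.98 ± 0.84), Hsf2 (4.27 ± 1.10), Hsf1 (1.74 ± 0.41), Dnajb4 (3.40 ± 0.69) and Ptges3 (2.84 ± 0.71) were higher. Hspa1b was at 14.5 and 13.3 FPKM in control ESC and 0.416 and 2.40 in control embryo, one of the 2 cytosolic HSP70 genes lower in embryos.

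Genes of the same pathways outside the 41 were read from lists of cochaperones, other J proteins, ER and mitochondrial folding factors, and actin and tubulin, 137 symbols of which 120 were tested in embryos. In KO embryo against control embryo 7 of 120 were higher and none lower, beside 4.86% and 1.5% of all genes; at an unadjusted p under 0.05 the numbers were 29 and 3, beside 15.7% and 6.81%. Beside H2-Ke2 the smallest p-values belonged to Pdrg1, a prefoldin-like protein (2.65 ± 0.55, adjusted p = 0.0233), Ppid, an immunophilin of HSP90 (1.88 ± 0.43, 0.0322), and Cdc37, which loads kinases onto HSP90 (2.34 ± 0.57, 0.0394). In KO arrest 27 were higher and 3 lower, beside 16.4% and 8.87%. They included Grpel1, the exchange factor of mitochondrial HSP70, at 0.585 and 12.2 FPKM in control embryo and 126, 129 and 199 in KO arrest (log2 fold change 5.02 ± 0.74 (SE), adjusted p = 0.00121), Dnajc15, a J protein of the mitochondrial import motor (2.47 ± 0.35), and Cdc37 (3.24 ± 0.57), all kept under all 16 alternatives. The 3 lower genes were Hspb6, a small heat shock protein at 2.60 and 27.2 FPKM in control embryo and listed at 0 in all 3 KO arrest libraries, Pdia4 (-1.99 ± 0.55), a disulfide isomerase of the ER, and Hsf5 (-3.06 ± 0.87), a germline heat shock factor. Of the 11 actin and tubulin genes tested, the main clients of TRiC, 1, Actg1, was higher in KO arrest and none was lower, beside 16.4% and 8.87% of all genes. Of the same genes 10 were lower in control embryo than in control ESC, beside 40.8%.

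In KO arrest against KO embryo 6 of the 120 were higher and 3 lower, beside 4.93% and 3.65% of all genes, so the shares were close to the background. The higher genes with the smallest p-values were Clpp, a mitochondrial protease (2.38 ± 0.48), Stub1, the ubiquitin ligase CHIP that works with HSP70 (3.20 ± 0.68), Dnajc15 (1.34 ± 0.31) and Btf3, a subunit of the nascent chain complex (1.71 ± 0.41). The lower genes were Cdc37l1 (-2.21 ± 0.48), Hyou1 (-3.32 ± 0.86), an HSP110 of the ER, and Dnajc21 (-1.37 ± 0.37). None of these calls was kept under every alternative. In KD ESC against control ESC the counts were also near those of all genes (2.59% higher and 3.64% lower): 2 of 125 were higher, Dnajc7 (0.86 ± 0.10) and Hscb (0.98 ± 0.16), and 5 lower, among them Calr (-0.67 ± 0.08), Actb (-0.43 ± 0.06), Hspbp1 (-0.98 ± 0.14) and Pdrg1 (-1.04 ± 0.16). Each of these calls was lost without either control ESC library. In the test of the difference of the 2 effects 3 of 131 passed, H2-Ke2 (3.58 ± 0.48), Pdrg1 (3.69 ± 0.74) and Cdc37 (2.78 ± 0.60), all more positive in embryos, beside 2.06% of all genes. Between control embryo and control ESC 14 of 131 were higher and 62 lower, beside 12.6% and 40.8%.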

How the data were processed

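Poly(A) RNA of lysed embryos and of ES cells was amplified by Smart-seq2, per the labels' protocols. STAR 0.6.0, StringTie, DESeq2 and the mouse build mm9 are named in the submitters' processing notes, without their roles. The authors deposited 3 values per gene and library: FPKM, TPM and coverage. No read counts are among them, so the depth is unknown; the coverage signal deposited per FPKM, a measure of relative depth, ranged from 0.373 to 2.01 over the 12 libraries. How multiply mapped reads were treated and whether strand was used are not stated in the labels or notes.

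FPKM was summed per gene symbol. Rows without a symbol (0.549% to 1.19% of the summed FPKM) were left out. A gene needed 1 FPKM or more in 2 or more libraries of a fit, and was tested on log2(FPKM + 1) with limma 3.58.1 (R 4.3.3, trend in the prior variance), and p-values were adjusted by Benjamini-Hochberg over all genes of the fit. The 8 embryo libraries gave one fit (5 residual degrees of freedom), the 4 ES cell libraries another (2) and all 12 the comparisons across tissues (7). Tests are two-sided and errors of fold changes are SE. Folds of means are ratios of mean FPKM. The fits were tested on simulated data. Alternatives were a pseudocount of 0.1, no filter, a filter of 5 FPKM, TPM, median-of-ratios scaling, a replicate block, a fit of the 2 groups alone and each library left out; the removal of a trend with transcript length was added after seeing the data, with the longest transcript per symbol of another build (94.2% of genes matched). Promoters are from RefSeq (GRCm38.p6); overlap with copies was counted as shared 50-base windows of annotated transcripts of that build.

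The 41 genes and all gene lists were chosen with earlier results of these data known. By the rule for naming, any of the 41 may be named; library values were due for the 2 to 4 genes of smallest p per role in the embryo comparisons and for every gene called in ES cells or against its role group, and at most 4 called genes per direction and comparison from the wider lists. Library values of further members were added after they had been seen, to complete the roles.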

Additional observations from a re-analysis of the deposited data

Results flagged for a closer look

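The knockout effect in embryos and the knockdown effect in ES cells differed in 2 of the 40 genes by a test of the difference itself, Pfdn2 by 2.84 and Tcp1 by 2.23 on the log2 scale. In embryos both were higher in every KO embryo library than in either control (2.00 ± 0.35 for Pfdn2, 2.32 ± 0.35 for Tcp1), and in ES cells Pfdn2 was lower in both knockdown libraries and not called (-0.84 ± 0.15), while Tcp1 was at 103 and 101 FPKM in control ESC and 100.4 and 117 in KD ESC (0.09 ± 0.10).

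A row without a gene name over the span of Cct3, outside the tested genes, averaged 67.1 ± 5.35 FPKM in KO arrest (SD, n = 3), 32.4 ± 19.6 in KO embryo (n = 3) and 8.31 ± 0.152 in control embryo (n = 2), where Cct3 itself was listed at 0. The difference was not tested.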

How the results depend on the processing

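No fold change reversed among the called genes that were followed through the alternatives: every one of the 41 called in a comparison, except that 12 of 34 were followed in control embryo against control ESC, and the wider-list genes named with a value, none of them in that comparison. For the genes called in KO embryo against control embryo, 56 of 96 results under an alternative kept the call, against 310 of 384 in KO arrest against control embryo, 112 of 144 in KO arrest against KO embryo, 31 of 55 in KD ESC against control ESC, 32 of 38 for the difference of effects and 228 of 228 for the 12 genes followed in control embryo against control ESC.

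The 6 genes called in KO embryo against control embryo became 3 with no filter, 3 under median-of-ratios scaling, 3 with the length trend removed and 2 in a fit of the 2 groups alone. The 24 called in KO arrest against control embryo became 15 under TPM, 15 under median-of-ratios scaling and 15 with the length trend removed, and their median fell from 1.58 to 0.85 under median-of-ratios scaling. In ES cells 3 were called under TPM, and the median was 0.03 with the length trend removed. Between control embryo and control ESC the median was -1.14 under median-of-ratios scaling and -1.23 with the length trend removed. For the difference of effects, median-of-ratios scaling left 0 calls in limma, with 7 genes at an unadjusted p under 0.05, and a median of 0.07, and the removal of the length trend 1 call.

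With a library left out, the number called and the median ranged from 1 to 13 and 0.67 to 1.20 in KO embryo against control embryo, 17 to 26 and 1.42 to 1.68 in KO arrest against control embryo, 3 to 12 and 0.35 to 0.69 in KO arrest against KO embryo, 0 to 4 and -0.11 to -0.04 in ES cells, 26 to 33 and -2.12 to -1.57 between control embryo and control ESC, and 0 to 12 and 0.66 to 1.16 for the difference of effects. The number moved by more than 1.5 times without KO embryo 1, KO embryo 2, KO arrest 2 and KO arrest 3 (5, 3, 5 and 4) in KO arrest against KO embryo, without either control ESC or KD ESC 1 (0, 0 and 3) in ES cells, and without control embryo 1, control embryo 2, KO arrest 1, control ESC 1 and control ESC 2 (4, 12, 4, 1 and 0) for the difference of effects. Where limma called 0, 11 and 7 genes in ES cells and 14 for the difference of effects had an unadjusted p under 0.05.

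The replicate numbers of the titles do not pair the libraries: deviations of same-numbered libraries from their group means correlated at -0.101 to 0.025. With the replicate number as a block, 0 of the genes were called by limma in KO embryo against control embryo (17 at an unadjusted p under 0.05; Tcp1 at an adjusted p of 0.0566) and 0 in ES cells (13 at an unadjusted p under 0.05); 19, 8, 31 and 2 were called in KO arrest against control embryo, KO arrest against KO embryo, control embryo against control ESC and the difference of effects. In ES cells the fit without one library leaves a group with 1 sample, which is assumed to vary like the other group. With FPKM alone the limit that depth sets on genes listed at 0 cannot be given.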

Other observations

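The 41 genes together made up 3211 to 8637 FPKM per library, and Ptges3 alone took a changing share of that sum. Its share was 66.3% and 41.2% in control embryo, 53.1%, 62.7% and 57.4% in KO embryo, 35.0%, 18.6% and 7.54% in KO arrest, and 6.01% to 7.39% in the 4 ES cell libraries. The 3 KO arrest libraries lay below all other embryo libraries. Hspa8, by contrast, was at 26.4 and 56.6 FPKM in control embryo and 750.4, 1293 and 1959 in KO arrest, where the library with the least Ptges3 had the most Hspa8.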
